A study of Mus musculus with 31 samples.

Results

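The genes described here are the core of the Notch signalling pathway: the 4 receptors Notch1, Notch2, Notch3 and Notch4, the 5 ligands Dll1, Dll3, Dll4, Jag1 and Jag2, and the transcription factor Rbpj. They were chosen by name, as the rows of the count matrix whose Ensembl identifiers carry these symbols, and are 10 of the 47729 genes listed. All 10 members passed the filter on low counts, which kept 19332 genes for testing.

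Notch receptors sit in the cell membrane and are activated by Delta-like (Dll) and Jagged (Jag) ligands on a neighbouring cell. Binding leads to cleavage of the receptor, first by an ADAM protease and then by gamma-secretase, and the freed intracellular domain enters the nucleus, where it joins Rbpj and Mastermind-like cofactors on the enhancers of target genes such as those of the Hes and Hey families. The pathway is known for its parts in keeping progenitor cells undifferentiated, in the step from neural crest cell to Schwann cell precursor and immature Schwann cell, and in blood vessel formation.

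The study examined olfactory ensheathing cells (OECs), the neural crest-derived glia that surround the axons of olfactory receptor neurons, by RNA-sequencing of tissue cut from sections of mouse embryos with a laser. All embryos carried a Sox10:H2BVenus transgene, in which regulatory sequence of the glial transcription factor gene Sox10 drives a nuclear fluorescent protein. None was treated, and each library pooled tissue from several sections. The regions were olfactory nerve in the mucosa beneath the olfactory epithelium at embryonic days E11.5, E13.5 and E16.5, olfactory nerve layer (ONL) on the surface of the olfactory bulb at E13.5, inner and outer ONL at E16.5, and, as a nerve with Schwann cells, trigeminal nerve at E16.5. The pieces also held axons, vessels and adjacent tissue, and in bulk samples fewer cells of a type and less RNA per cell cannot be told apart. Levels are given as CPM, the counts of a library scaled to a common total and by a factor between libraries, or, wherever genes are compared with each other, as CPM per kilobase of exon (CPM per kb).

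The 31 libraries held from 3512627 to 36705535 counts on genes. The labels of 10 of the 16 libraries labelled E11.5 or E13.5 went against the published group means, whereas all 15 E16.5 libraries matched. By those means, the E13.5 ONL group was made of 5 libraries (those labelled E11.5_ON1 to E11.5_ON4 and E13.5_ON1), the E13.5 olfactory nerve group of 7 (E13.5_ON2 to E13.5_ON7 and E13.5_ONL1) and the E11.5 olfactory nerve group of 4 (E13.5_ONL2 to E13.5_ONL5). This published grouping is used below, and the calls of the same comparisons with the libraries grouped by label are given beside it. At E16.5 there were 4 libraries each of olfactory nerve, outer ONL and inner ONL, and 3 of trigeminal nerve. The study describes 2 embryos for E11.5 olfactory nerve, 3 for trigeminal nerve and 4 for each other region, and the libraries are not tied to embryos in the labels, so p-values measure the spread between these libraries. Since the early groups hold more libraries than embryos, some of their libraries share an embryo, which makes p-values over them too small. Embryos shared between ONL and nerve of the same stage would act the other way, and the labels do not give them. At E16.5 the study cut trigeminal nerve from the same sections as the olfactory regions, so these regions share embryos. The main fit does not pair them. The summed level of 5 neural crest glia markers (Sox10, Fabp7, Erbb3, Foxd3 and S100b) ranged from 15000 to 27000 CPM in outer ONL, 16900 to 22100 CPM in inner ONL, 1300 to 3180 CPM in E16.5 olfactory nerve and 668 to 734 CPM in trigeminal nerve. It ranged from 4060 to 6270 CPM in E13.5 ONL, 424 to 932 CPM in E13.5 olfactory nerve and up to 941 CPM in E11.5 olfactory nerve, and none of the 5 was at or under 3 counts throughout a group. These sums weigh the most abundant markers most. Taken marker by marker, the median log2 difference of outer ONL was 1.4 from olfactory nerve (4 of 5 called higher) and 0.823 from trigeminal nerve (2 of 5). Between E13.5 ONL and nerve it was 1.14 (4 called higher and 1 lower). Single glia markers went both ways between the nerves of E16.5, with 1 of 5 called higher and 2 lower in olfactory nerve. Blood vessel, connective tissue, neuronal and epithelial markers were also counted in the pieces, and their levels are given below beside the members they moved with.

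Every member was counted in every library, with the order of levels differing between regions. Per kilobase of exon, the 4 receptors summed to 15.4 ± 1.22 CPM per kb in outer ONL (SD, n = 4), 13.8 ± 2.98 in inner ONL (n = 4), 11.6 ± 1.85 in E16.5 olfactory nerve (n = 4) and 16.9 ± 3.92 in trigeminal nerve (n = 3). The 5 ligands summed to 8.1 ± 1.79 CPM per kb in outer ONL, 8.27 ± 0.912 in inner ONL, 18.5 ± 5.21 in E16.5 olfactory nerve and 22.7 ± 3.91 in trigeminal nerve. Receptors thus had a higher summed level per kb than ligands in both ONL groups, and ligands a higher one than receptors in both nerves. In the early groups, receptors and ligands summed to 5.97 ± 0.76 and 9.63 ± 2.22 CPM per kb in E11.5 olfactory nerve, 12.8 ± 1.61 and 18.6 ± 1.98 in E13.5 olfactory nerve, and 8.36 ± 1.5 and 13.2 ± 1.06 in E13.5 ONL. By label these means were 7.75 and 13.3 in E11.5 nerve, 12.4 and 18.1 in E13.5 nerve, and 7.4 and 10.9 in E13.5 ONL. These sums describe the pieces as a whole and were not tested.

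**Figure D1:**
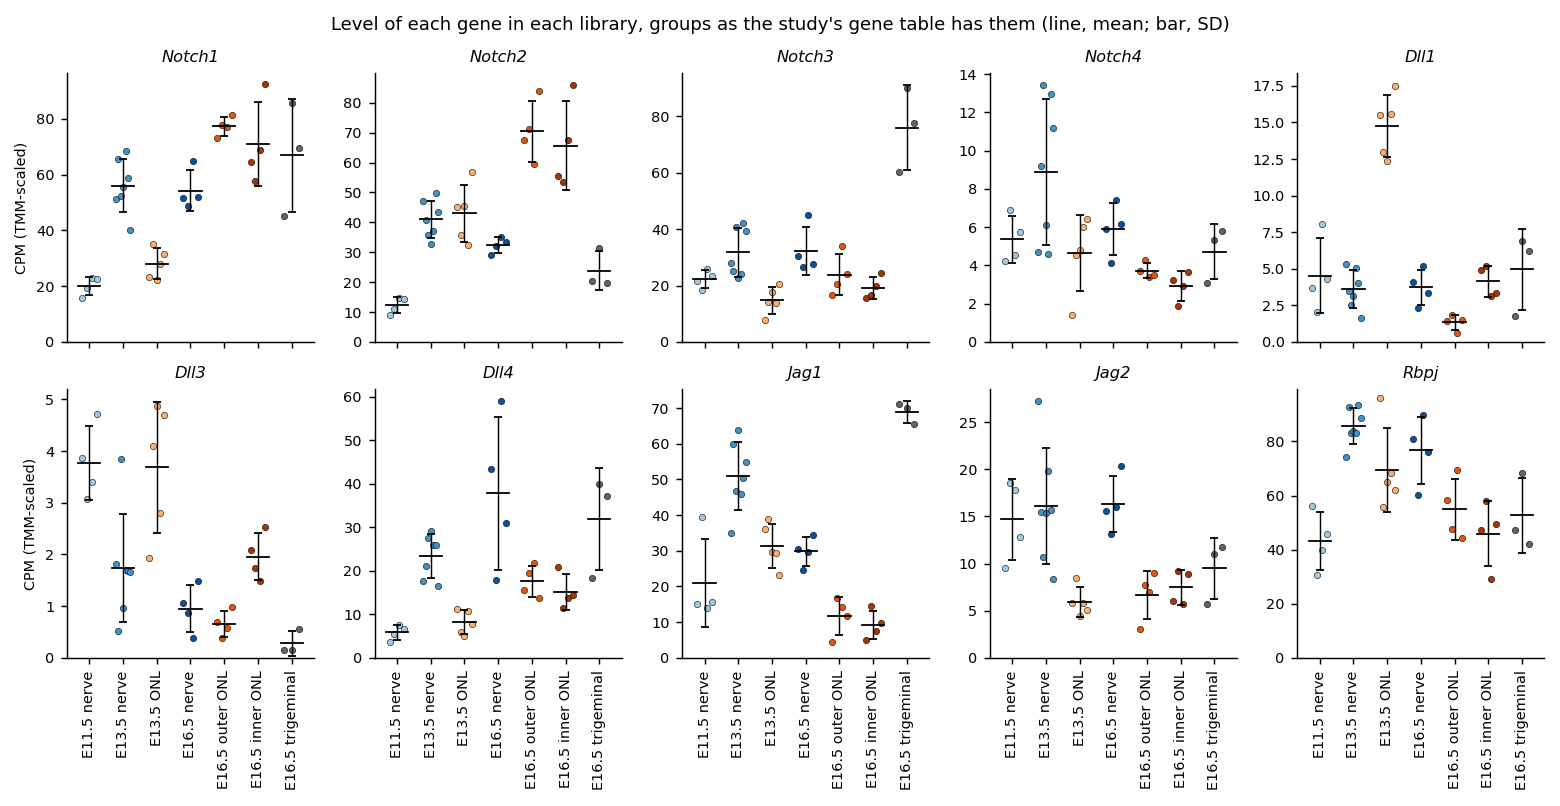
Level of each member in each of the 31 libraries, in CPM on a linear axis, by the published grouping (points are libraries, lines are group means and bars are SDs). Notch2 and Notch1 stood highest in the ONL groups of E16.5, Notch3 and Jag1 highest in trigeminal nerve, and Dll1 highest in E13.5 ONL.

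The make-up of the receptors differed between regions. Notch2 supplied 42.5 ± 4.83% of the summed receptor level per kb in outer ONL, 44 ± 0.927% in inner ONL and 47.9 ± 8.03% in E13.5 ONL, against 26.4 ± 3% in E16.5 olfactory nerve and 13.2 ± 2.09% in trigeminal nerve. By label the mean share of Notch2 was 21.3% in E13.5 ONL and 47.7% in E11.5 olfactory nerve. Notch3 supplied 55.9 ± 1.97% in trigeminal nerve, and its mean share was 34.2% in E16.5 olfactory nerve and 19.1% in outer ONL. The mean share of Notch1 stayed between 23.6% and 36.2% over the 7 groups. Among the ligands, Dll4 had the largest mean share in outer ONL (57.2 ± 9.48%) and in E16.5 olfactory nerve (51 ± 10.9%), whereas Jag1 had it in trigeminal nerve (53.3 ± 11.6%, with Dll4 at 35.5%). Dll1 supplied 26.7 ± 4.13% of the ligand level per kb in E13.5 ONL, but a mean of 9.82% by label. Its mean share in outer ONL was 4.16%. The mean share of Dll3 ranged from 0.424% in trigeminal nerve to 14.5% in E11.5 olfactory nerve.

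**Figure D2:**
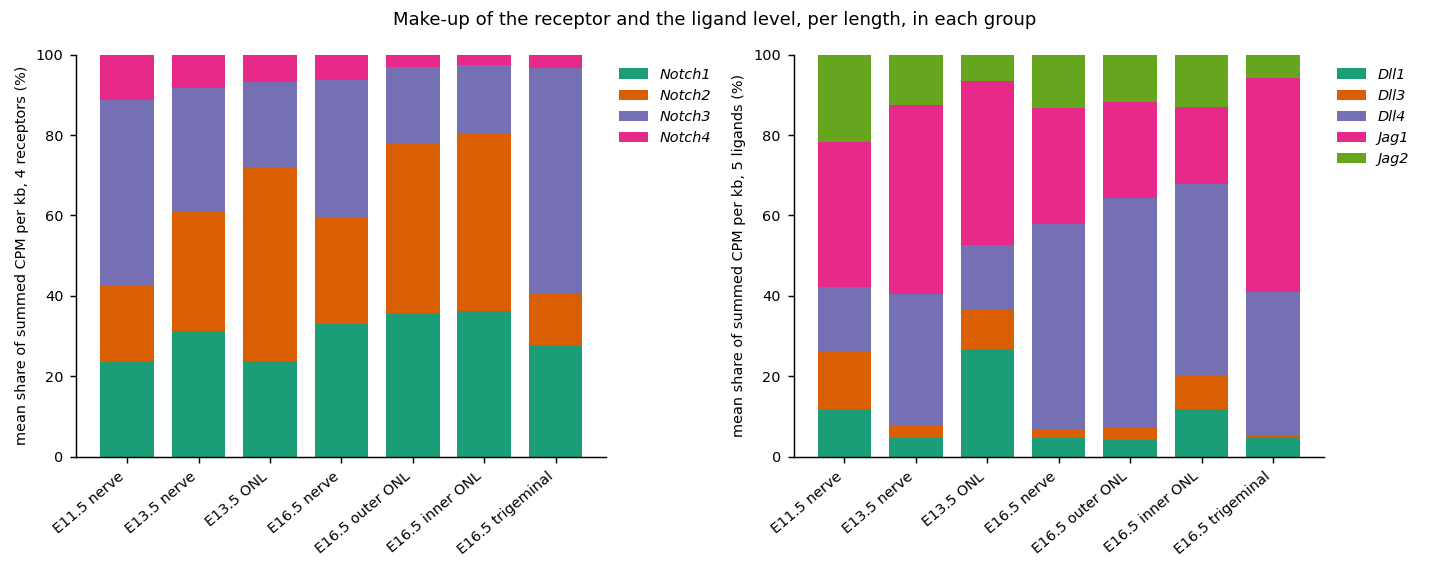
Mean share of each receptor in the summed receptor level and of each ligand in the summed ligand level, in percent of CPM per kb, stacked for each of the 7 groups. Notch2 made up 42.5% of the receptor level in outer ONL and 13.2% in trigeminal nerve, where Notch3 made up 55.9%.

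Outer ONL was compared first with the olfactory nerve of the same stage, to set against each other OECs at different points along the same axons. Outer ONL had more Notch2 and Notch1 and less of 4 of the 5 ligands, Jag1, Jag2, Dll4 and Dll1. Notch2 was 67.5, 71.3, 59.3 and 83.8 CPM in the outer ONL libraries and 29, 32.2, 35.2 and 33.3 CPM in the olfactory nerve libraries. All 4 outer ONL libraries lay above all 4 nerve libraries, and the log2 difference was 1.12 ± 0.19 (SE; edgeR's quasi-likelihood test, Benjamini-Hochberg adjusted p = 6.947e-05). Notch1 was 73, 77.8, 77 and 81.4 CPM in outer ONL and 51.6, 48.7, 65 and 51.9 CPM in olfactory nerve, again without overlap. Its log2 difference of 0.51 ± 0.19 passed the test narrowly (edgeR adjusted p = 0.0475). The call held with the 2 groups fitted alone (0.49, edgeR adjusted p = 0.0261) and with the library number as a replicate block (0.50, 0.0139). It did not hold with total-count scaling (edgeR adjusted p = 0.193), upper-quartile scaling (0.0758) or no filter on low counts (0.0991), by DESeq2 (0.071), with the E16.5 libraries fitted alone (0.0992) or when any 1 of the 8 libraries was left out (0.0589 to 0.173).

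Jag1, the Jagged ligand with the widest known role in vessels and sensory epithelia, was 4.45, 16.9, 14.2 and 11.6 CPM in outer ONL and 30.6, 24.6, 29.7 and 34.3 CPM in olfactory nerve. Jag2, its closest relative, was 3.07, 7.73, 6.97 and 8.97 CPM in outer ONL and 15.6, 13.2, 16 and 20.3 CPM in olfactory nerve. For both Jagged ligands every outer ONL library lay below every nerve library, with log2 differences of -1.34 ± 0.32 for Jag1 (edgeR adjusted p = 0.0028) and -1.28 ± 0.33 for Jag2 (edgeR adjusted p = 0.00475). Dll1, a ligand of neural progenitors and of early neurons, was low throughout, at 1.46, 1.82, 0.64 and 1.46 CPM in outer ONL and 4.08, 2.35, 5.2 and 3.32 CPM in olfactory nerve. The groups did not overlap, and Dll1 was lower in outer ONL by a log2 difference of -1.46 ± 0.43 (edgeR adjusted p = 0.012).

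Dll4, the ligand best known from sprouting endothelium, was 15.5, 19.5, 21.7 and 13.7 CPM in outer ONL and 43.5, 17.8, 59 and 31 CPM in olfactory nerve. One nerve library, E16.5_ON2, lay among the outer ONL libraries. The log2 difference was -1.10 ± 0.31 (edgeR adjusted p = 0.01), and the call was lost without nerve library E16.5_ON3, the highest of the group (-0.87, edgeR adjusted p = 0.0555). Across all genes 10.2% were called higher and 11.8% lower in outer ONL, against 2 and 4 of the 10 members. The median log2 difference was -0.60 over the members and 0.01 over all genes tested.

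Rbpj itself, the DNA-binding partner of all 4 cleaved receptors, was 58.4, 47.5, 69.4 and 44.4 CPM in outer ONL and 80.8, 60.2, 89.9 and 75.9 CPM in olfactory nerve. Notch3, known from mural cells of vessels, was 16.8, 20.6, 34 and 24 CPM in outer ONL and 30.5, 26.6, 44.9 and 27.5 CPM in olfactory nerve. Both overlapped between the groups and neither passed the test (Rbpj -0.48 ± 0.20, edgeR adjusted p = 0.0878; Notch3 -0.44 ± 0.25, edgeR adjusted p = 0.238). Libraries with the same number deviated together in these groups, and with the number as a replicate block both were called, with log2 differences of -0.51 for Rbpj (edgeR adjusted p = 0.013) and -0.47 for Notch3 (edgeR adjusted p = 0.0423). Rbpj was also called with total-count scaling (-0.63, edgeR adjusted p = 0.0213), with upper-quartile scaling (-0.54, 0.0398), by DESeq2 (-0.55, adjusted p = 0.0436) and without nerve library 2 (-0.58, 0.0498) or outer ONL library 3 (-0.61, 0.0425). Notch4, a receptor of endothelium, and Dll3, a divergent ligand known mainly for acting within its own cell, had log2 differences of -0.67 and -0.54 that did not pass (edgeR adjusted p = 0.209 and 0.506).

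Markers of other cell types moved with these members. The 8 mural cell markers summed to 291 to 536 CPM in outer ONL and 836 to 3260 CPM in olfactory nerve, with 6 of 8 called lower, and the 5 epithelial markers to 5.25 to 9.42 CPM and 138 to 468 CPM, with 5 of 5 called lower and the basal keratin gene Krt5 at or under 3 counts in every outer ONL library. The 10 endothelial markers ranged from 633 to 1010 CPM in outer ONL and 737 to 1380 CPM in olfactory nerve, with 3 of 10 called lower, and 5 of 6 connective tissue (mesenchyme) markers were lower too. The neural crest glia markers moved the other way, with 4 of 5 called higher. The part of these cell types in the differences of Notch2, Notch3, Jag1, Jag2, Dll1, Dll4 and Rbpj was not tested.

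**Figure D3:**
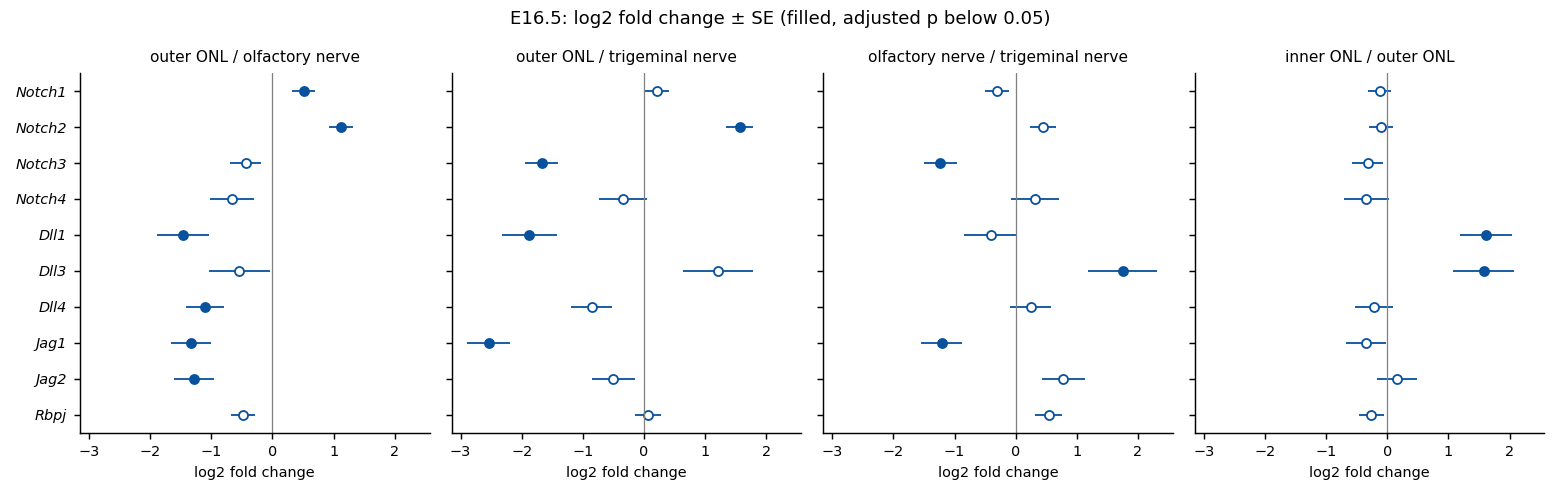
Log2 fold change of each member in the 4 comparisons between E16.5 regions, from the edgeR fit (points with SE, filled where the adjusted p was under 0.05). Notch2 was higher in outer ONL than in either nerve (1.12 and 1.56), Jag1 was lower (-1.34 and -2.54), and Dll1 and Dll3 were the members higher in inner than in outer ONL.

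Against trigeminal nerve, outer ONL had more Notch2 and less Notch3, Jag1 and Dll1. Notch2 was 20.5, 31.3 and 19.9 CPM in the 3 trigeminal libraries, all below the lowest outer ONL library (log2 difference 1.56 ± 0.22, edgeR adjusted p = 1.755e-06). Notch3 was 60.1, 90.2 and 77.7 CPM in trigeminal nerve, all above the highest outer ONL library at 34 CPM (-1.67 ± 0.27, edgeR adjusted p = 1.734e-05). Jag1 showed the widest separation of the members here, at 71.1, 70.1 and 65.4 CPM in trigeminal nerve against at most 16.9 CPM in outer ONL (-2.54 ± 0.35, edgeR adjusted p = 1.276e-06). Dll1 was 1.8, 6.89 and 6.21 CPM in trigeminal nerve, and the lowest of these lay just under the highest outer ONL library. Its log2 difference was -1.87 ± 0.44 (edgeR adjusted p = 0.00181). Of all genes 25.8% were called in either direction, against 4 of the 10 members, 1 higher and 3 lower.

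Notch1 did not separate outer ONL from trigeminal nerve. Its trigeminal libraries, at 45.3, 85.7 and 69.6 CPM, reached below and above those of outer ONL, and the log2 difference was 0.21 ± 0.20 (edgeR adjusted p = 0.496). Rbpj, at 47.3, 68.4 and 42.1 CPM in trigeminal nerve, spanned the same range as in outer ONL (0.06 ± 0.22, edgeR adjusted p = 0.884). Dll4 was 18.5, 39.9 and 37.2 CPM in trigeminal nerve, with an overlap and a log2 difference of -0.86 ± 0.33 that missed the threshold (edgeR adjusted p = 0.0551). Dll4 passed it by DESeq2 (0.038), with the 2 groups alone (0.0374), and without outer ONL library 3 (0.0462) or trigeminal library 1 (0.0206). The mural cell markers summed to 1070 to 1870 CPM in trigeminal nerve, above all outer ONL libraries, with 7 of 8 called lower in outer ONL, and 5 of 6 mesenchyme markers were lower as well. Neuron markers, at 57.3 to 75.3 CPM in trigeminal nerve and 91.1 to 674 CPM in outer ONL, were higher for 5 of 5, and 2 of 5 neural crest glia markers were higher. The part of these cell types in the differences of Notch2, Notch3, Jag1 and Dll1 was not tested.

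The 2 nerves at E16.5 differed in 3 members. Notch3 was lower in olfactory than in trigeminal nerve in every library (-1.23 ± 0.27, edgeR adjusted p = 0.000862), and so was Jag1 (-1.21 ± 0.34, edgeR adjusted p = 0.00824). The Jag1 call missed the threshold with total-count scaling (-0.94, edgeR adjusted p = 0.0546), under which the median of all genes moved from -0.01 to 0.24. Dll3 was at 4, 4 and 15 counts in the trigeminal libraries, or 0.144, 0.144 and 0.551 CPM, and at 1.05, 0.866, 0.39 and 1.5 CPM in olfactory nerve. The ranges of Dll3 overlapped, and its log2 difference of 1.75 ± 0.56 (edgeR adjusted p = 0.0225) was lost without nerve library E16.5_ON4 (0.0849), without trigeminal library E16.5_TN1 (0.115) or E16.5_TN2 (0.108), and with the 2 groups fitted alone (0.0737) or without the filter on low counts (0.051). Across all genes 13% were called higher and 10.6% lower in olfactory nerve, against 1 and 2 of the 10 members. Several marker lists differed alongside. The mesenchyme markers summed to 3700 to 5740 CPM in olfactory nerve and 9520 to 11100 CPM in trigeminal nerve, with 2 of 6 called lower. The neuron markers summed to 533 to 981 CPM and 57.3 to 75.3 CPM, with 5 of 5 called higher, and the epithelial markers to 138 to 468 CPM and 19.2 to 29.9 CPM, with 4 of 5 called higher. Of the vessel markers, 0 of 10 endothelial and 1 of 8 mural cell markers were higher, and 1 of the 8 was lower. Of the 5 neural crest glia markers, 1 was called higher and 2 lower in olfactory nerve, with a median log2 difference of -0.575. Their summed level was nonetheless higher there, at 1300 to 3180 CPM against 668 to 734 CPM. The part of these cell types in the differences of Notch3, Jag1 and Dll3 was not tested.

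Notch2, the receptor that set outer ONL apart from both nerves, did not pass the test between the nerves (0.44 ± 0.21, edgeR adjusted p = 0.133), but did with total-count scaling (0.70, edgeR adjusted p = 0.02) and without trigeminal library 2 (0.71, 0.0325). Jag2, with a log2 difference of 0.78 ± 0.35, did not pass it either (edgeR adjusted p = 0.113), but did with total-count scaling (1.04, 0.0404) and with the 2 groups alone (0.84, 0.0397). Rbpj had a log2 difference of 0.54 ± 0.22, which did not pass (edgeR adjusted p = 0.072) and passed with total-count scaling (0.80, edgeR adjusted p = 0.0065), with upper-quartile scaling (0.0206), by DESeq2 (0.0404), with the 2 groups alone (0.0437) and without olfactory nerve library 2 (0.0428) or trigeminal library 2 (0.0244).

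Inner and outer ONL at E16.5 were cut as separate pieces, although the cutting did not part the OECs of the inner and outer layer from each other. The receptors overlapped between the pieces, with Notch2 at 55.5, 53.6, 67.4 and 86 CPM and Notch1 at 64.5, 57.9, 68.9 and 92.5 CPM in inner ONL. The log2 differences of the 8 members other than Dll1 and Dll3 lay between -0.36 and 0.16, and none was called, with SEs from 0.19 to 0.37. Dll1 was 4.91, 5.19, 3.14 and 3.32 CPM in inner ONL, every library above every outer ONL library (log2 difference 1.61 ± 0.43, edgeR adjusted p = 0.0085). Dll3 was 2.09, 1.73, 1.49 and 2.53 CPM in inner ONL and 0.691, 0.377, 0.569 and 0.977 CPM in outer ONL. The groups did not overlap, and the log2 difference of Dll3 was 1.58 ± 0.50 (edgeR adjusted p = 0.0287).

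The Dll3 call was lost without outer ONL library 1 (edgeR adjusted p = 0.0605), 2 (0.0968) or 3 (0.0783) and without inner ONL library 1 (0.0578) or 4 (0.0755), and without the filter on low counts (0.0602). Over all genes 8.2% were called higher and 5.94% lower in inner ONL, against 2 and 0 of the 10 members. Neuronal markers moved with Dll1 and Dll3. The 5 neuron markers (Tubb3, Stmn2, Dcx, Snap25 and Elavl4) summed to 1290 to 2770 CPM in inner ONL and 91.1 to 674 CPM in outer ONL, with 5 of 5 called higher. The 4 markers of olfactory bulb projection neurons (Tbr1, Eomes, Tbx21 and Reln) summed to 300 to 609 CPM and 6.06 to 122 CPM, with 4 of 4 called higher. Their part in the Dll1 and Dll3 differences was not tested.

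At E13.5, the ONL had less Notch1, Notch3, Notch4, Dll4, Jag1 and Jag2 and more Dll1 and Dll3 than olfactory nerve when the libraries were grouped by the published means. Some libraries within these groups share an embryo, which makes p-values too small. Embryos shared between ONL and nerve, which the labels do not give, would make them too large. Notch1 ranged from 22.4 to 35.2 CPM in E13.5 ONL (median 27.9) and from 40 to 68.4 CPM in E13.5 olfactory nerve (median 55.5), without overlap (log2 difference -0.99 ± 0.16, edgeR adjusted p = 1.269e-05). Notch3 ranged from 7.75 to 20.4 CPM in ONL and from 22.8 to 42.2 CPM in olfactory nerve, also without overlap (-1.08 ± 0.22, edgeR adjusted p = 0.000225). Notch2, by contrast, ranged from 32.3 to 56.7 CPM in ONL and from 32.6 to 49.8 CPM in nerve, and its log2 difference was 0.07 ± 0.16 (edgeR adjusted p = 0.796).

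Dll1 was the member with the largest change at E13.5. Its 5 ONL libraries held 15.5, 13, 12.4, 15.6 and 17.5 CPM, and the 7 nerve libraries ranged from 1.66 to 5.32 CPM with a median of 3.47. The groups were far apart, with a log2 difference of 2.03 ± 0.33 (edgeR adjusted p = 1.397e-05). Dll4 ranged from 5.14 to 11.3 CPM in ONL and from 16.4 to 29.1 CPM in nerve, without overlap (-1.55 ± 0.28, edgeR adjusted p = 5.211e-05), and Jag2 from 4.42 to 8.5 CPM in ONL and from 8.37 to 27.3 CPM in nerve, with a slight overlap (-1.44 ± 0.29, edgeR adjusted p = 0.000181).

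The calls of the other 3 ligands and receptors at E13.5 were close to the threshold. Notch4 was lower in ONL (-0.89 ± 0.31, edgeR adjusted p = 0.0248), as was Jag1 (-0.70 ± 0.27, edgeR adjusted p = 0.0443), and Dll3 was higher (1.08 ± 0.38, edgeR adjusted p = 0.0299). Notch4 was not called with the 2 groups fitted alone (0.067), or without the libraries labelled E11.5_ON1 (0.0698), E11.5_ON2 (0.0516), E13.5_ON4 (0.0596) or E13.5_ON7 (0.0606). Dll3 was not called without E11.5_ON2 (0.0585), E11.5_ON3 (0.0811), E13.5_ON1 (0.0768), E13.5_ON3 (0.0573) or E13.5_ON5 (0.065), or without the filter on low counts (0.0659). Jag1 was not called without any 1 of 8 libraries: E11.5_ON3 (0.0841), E11.5_ON4 (0.0823), E13.5_ON1 (0.12), E13.5_ON3 (0.0736), E13.5_ON4 (0.0514), E13.5_ON5 (0.0861), E13.5_ON7 (0.0579) or E13.5_ONL1 (0.0646). Across all genes 15.4% were called higher and 16.1% lower in E13.5 ONL, against 2 and 6 of the 10 members.

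Grouping by label gave another picture of E13.5. By label, Notch1 (-1.19 ± 0.21, edgeR adjusted p = 0.000473), Notch2 (-1.23 ± 0.27, 0.0033), Dll4 (-1.49 ± 0.35, 0.00604) and Rbpj (-0.65 ± 0.21, 0.0319) were lower in ONL and no member was higher, while 17.7% of all genes were called. Notch1 and Dll4 were thus lower in ONL by either grouping. The other 4 members lower by the published means were not called by label, namely Notch3 (-0.18, edgeR adjusted p = 0.617), Notch4 (-0.33, 0.496), Jag1 (-0.74, 0.108) and Jag2 (-0.21, 0.668), nor was Dll3 (0.60, 0.339). Dll1 had a log2 difference of -0.58 ± 0.43 by label (edgeR adjusted p = 0.364). Of its 5 early libraries of 12.4 CPM and above, 4 are labelled E11.5 olfactory nerve and enter neither group of this comparison by label, and E13.5_ON1, at 17.5 CPM, enters the nerve group. The other 6 libraries of that group ranged from 2.52 to 5.32 CPM and the 5 labelled ONL from 1.66 to 8.09 CPM, so the higher nerve mean rested on 1 library. Markers of olfactory bulb projection neurons ranged from 539 to 685 CPM in E13.5 ONL by the published means and from 39.7 to 65.8 CPM in E13.5 nerve, where Eomes and Tbx21 were at or under 3 counts throughout, and 4 of 4 were called higher in ONL. The mural cell markers ranged from 89.4 to 117 CPM in ONL and 217 to 438 CPM in nerve (6 of 8 lower), and the epithelial markers from 3.96 to 12.5 CPM and 230 to 450 CPM (4 of 5 lower, with Krt5 at or under 3 counts in ONL). Of the 5 markers of neuronal progenitors and neuroblasts, at 58.1 to 115 CPM in ONL and 146 to 340 CPM in nerve, 1 was higher and 4 lower. Neuron markers were higher in ONL for 4 of 5, and of 5 neural crest glia markers 4 were higher and 1 lower. Lower in ONL were 4 of 6 mesenchyme and 3 of 10 endothelial markers. The part of these cell types in the differences at E13.5 was not tested.

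**Figure D4:**
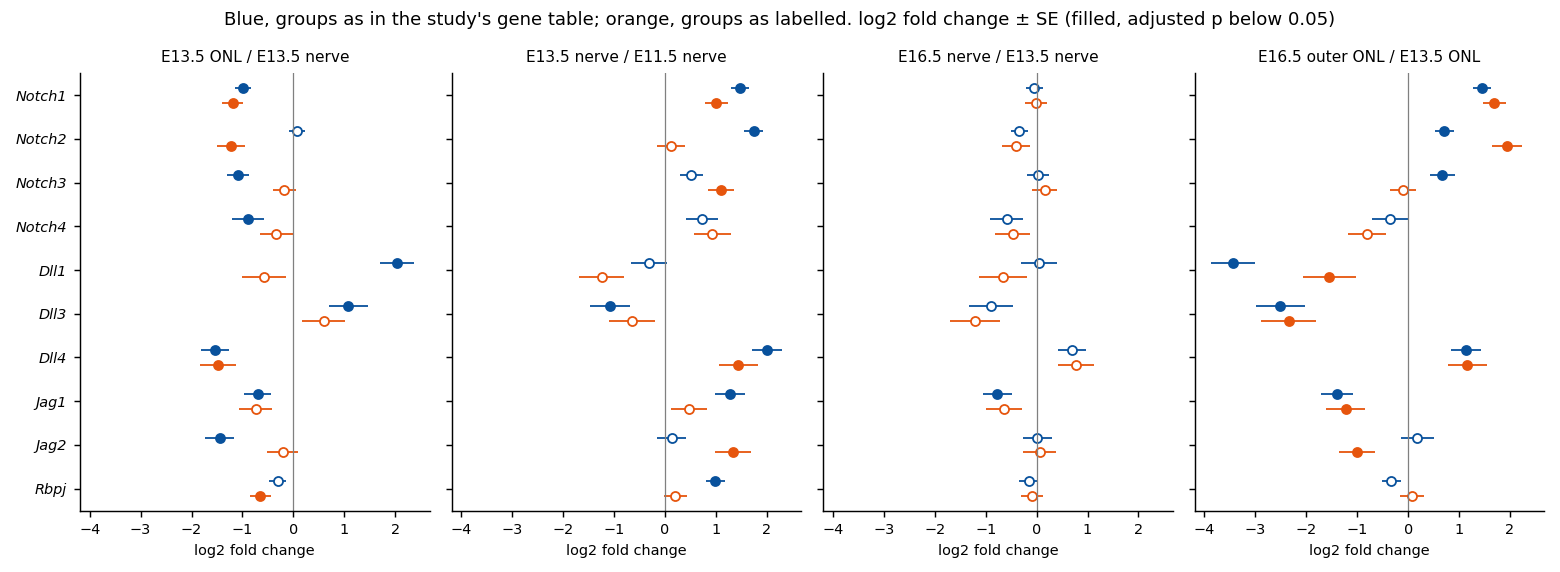
Log2 fold change of each member in the 4 comparisons with E11.5 or E13.5 libraries (points with SE, filled where the adjusted p was under 0.05), with libraries grouped by the published means (blue) and by label (orange). Dll1 between E13.5 ONL and nerve lay at 2.03 by the means and at -0.58 by label, whereas Dll4 lay at -1.55 and -1.49.

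Between E11.5 and E13.5, olfactory nerve gained Notch1, Notch2, Dll4, Jag1 and Rbpj and lost Dll3. Libraries of both groups share embryos, so these p-values are too small. Notch1 was 15.8, 19.2, 22.8 and 22.5 CPM at E11.5, all below the lowest E13.5 nerve library at 40 CPM (log2 difference 1.48 ± 0.18, edgeR adjusted p = 1.368e-07). Notch2 was 9.11, 10.9, 14.7 and 14.4 CPM at E11.5, against at least 32.6 CPM at E13.5 (1.74 ± 0.19, edgeR adjusted p = 1.694e-08). Dll4 was 3.58, 5.51, 7.63 and 6.66 CPM at E11.5 against at least 16.4 CPM (2.0 ± 0.30, edgeR adjusted p = 5.545e-06). Rbpj was 56, 30.7, 40 and 45.9 CPM against at least 74.3 CPM (0.99 ± 0.19, edgeR adjusted p = 0.000107). These 4 genes did not overlap between the stages, and the share of all genes that do not was not counted.

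Jag1 was 15.1, 39.4, 13.9 and 15.7 CPM at E11.5, where the library labelled E13.5_ONL3 stood above the other 3 and overlapped the E13.5 range of 35.1 to 63.8 CPM (1.27 ± 0.29, edgeR adjusted p = 0.000983). Without that library the log2 difference was 1.77 (edgeR adjusted p = 2.24e-05). Dll3 fell by a log2 difference of -1.08 ± 0.40 (edgeR adjusted p = 0.0323), a call that was lost without E13.5_ON3 (0.0603), E13.5_ON5 (0.0797), E13.5_ONL2 (0.0555) or E13.5_ONL5 (0.0793), without the filter on low counts (0.0603) and with the 2 groups alone (0.0548). Across all genes 20.2% were called higher and 16.4% lower at E13.5, against 5 and 1 of the 10 members, and the median log2 difference was 0.86 over the members and 0.05 over all genes. The endothelial markers rose alongside, from 29.9 to 215 CPM at E11.5 to 455 to 670 CPM at E13.5, with 10 of 10 called higher. Also higher were 6 of 8 mural cell, 5 of 6 mesenchyme and 3 of 5 epithelial markers. Of the 5 markers of neuronal progenitors and neuroblasts, 4 were higher and 1 lower. Neuron markers were lower for 4 of 5, and of 5 neural crest glia markers 3 were lower and 1 higher. The part of these cell types was not tested. By label 17.5% of all genes were called, and Notch1 (1.00 ± 0.22, edgeR adjusted p = 0.00246), Notch3 (1.11 ± 0.26, 0.00363), Dll4 (1.44 ± 0.39, 0.0112) and Jag2 (1.34 ± 0.35, 0.00931) were higher at E13.5, whereas Notch2 (0.12 ± 0.28, 0.832), Rbpj (0.20 ± 0.22, 0.594), Jag1 (0.47 ± 0.35, 0.398) and Dll3 (-0.65 ± 0.46, 0.365) were not called.

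Between E13.5 and E16.5, 1 of the 10 members was called in olfactory nerve. Libraries of the E13.5 group share embryos, so these p-values are too small. That member was Jag1, at 24.6 to 34.3 CPM at E16.5 against 35.1 to 63.8 CPM at E13.5 (-0.77 ± 0.29, edgeR adjusted p = 0.0427). The call was not kept with total-count scaling (0.0573), without the filter on low counts (0.0578), by label (-0.64 ± 0.35, edgeR adjusted p = 0.188), or without any 1 of the 9 libraries E13.5_ON3, E13.5_ON4, E13.5_ON5, E13.5_ON7, E13.5_ONL1 and E16.5_ON1 to E16.5_ON4 (0.0553 to 0.125). Dll4, at 16.4 to 29.1 CPM at E13.5 and 17.8 to 59 CPM at E16.5, had a log2 difference of 0.69 ± 0.27 (edgeR adjusted p = 0.052), and was called by DESeq2 (0.74, adjusted p = 0.0259), with the 2 groups alone (0.04) and without E13.5_ON4 (0.0447), E13.5_ON5 (0.0379), E16.5_ON2 (0.0109) or E16.5_ON4 (0.0326). Of all genes 15.2% were called higher and 13.6% lower at E16.5, against 0 and 1 members, and by label 25.1% of all genes and 0 members were called. The mural cell markers rose from 217 to 438 CPM at E13.5 to 836 to 3260 CPM at E16.5, with 6 of 8 called higher, as were 6 of 10 endothelial markers and 4 of 5 neural crest glia markers, and their part was not tested.

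From E13.5 ONL to E16.5 outer ONL, by contrast, 7 of the 10 members changed, and 21.9% of all genes were called higher and 20% lower, again with E13.5 libraries that share embryos and p-values that are too small. Notch1 rose in every library, from at most 35.2 CPM at E13.5 to at least 73 CPM at E16.5 (log2 difference 1.46 ± 0.18, edgeR adjusted p = 1.344e-07). Notch2 rose from at most 56.7 CPM to at least 59.3 CPM (0.71 ± 0.18, edgeR adjusted p = 0.00222), and Dll4 from at most 11.3 CPM to at least 13.7 CPM (1.14 ± 0.30, edgeR adjusted p = 0.00306). Dll1 dropped from at least 12.4 CPM to at most 1.82 CPM (-3.44 ± 0.43, edgeR adjusted p = 2.125e-07). This was the largest log2 difference of a member in the comparisons run between 2 groups.

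Dll3 and Jag1 fell as well. Dll3 went from 1.94 to 4.88 CPM at E13.5 to 0.377 to 0.977 CPM at E16.5 (-2.51 ± 0.49, edgeR adjusted p = 0.000114), and Jag1 from 23.2 to 39 CPM to 4.45 to 16.9 CPM (-1.41 ± 0.31, edgeR adjusted p = 0.000563). Notch3 was higher at E16.5 (0.67 ± 0.24, edgeR adjusted p = 0.0263), but not with total-count scaling (0.0535), with the 2 groups alone (0.0737) or without E11.5_ON1 (0.0708), E11.5_ON2 (0.0504) or E16.5_oONL3 (0.166). By label 35.2% of all genes were called. Notch1 (1.69), Notch2 (1.94) and Dll4 (1.16) were higher and Dll1 (-1.55), Dll3 (-2.35) and Jag1 (-1.23) lower by label too, so these 6 members were called in the same direction by either grouping. Notch3 was not called by label (-0.10 ± 0.26, edgeR adjusted p = 0.785) and Jag2 was lower (-1.01 ± 0.36, 0.0306). Neuron markers ranged from 2660 to 4290 CPM in E13.5 ONL and from 91.1 to 674 CPM in outer ONL, with 5 of 5 called lower at E16.5, as were 3 of 4 markers of olfactory bulb projection neurons. Vessel markers rose, the endothelial ones from 313 to 491 CPM to 633 to 1010 CPM (6 of 10 called higher) and the mural cell ones from 89.4 to 117 CPM to 291 to 536 CPM (8 of 8 higher). Neural crest glia markers rose too, from 4060 to 6270 CPM to 15000 to 27000 CPM (4 of 5 higher). The part of these cell types in the changes of the 7 members was not tested.

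Whether the difference between ONL and nerve itself changed with stage was tested as an interaction, in which 5.59% of all genes were called higher and 6.75% lower at E16.5. Notch1 went from lower in ONL at E13.5 to higher at E16.5, and its difference changed by 1.5 ± 0.25 (edgeR adjusted p = 0.000104). The difference of Notch2 changed by 1.05 ± 0.25 (edgeR adjusted p = 0.00483). Dll1 went from higher in ONL at E13.5 to lower at E16.5, a change of -3.49 ± 0.54 (edgeR adjusted p = 5.893e-05). The other 7 members were not called, among them Jag1 (-0.64 ± 0.41, edgeR adjusted p = 0.384) and Dll4 (0.44 ± 0.41, edgeR adjusted p = 0.585). By label, where 12.5% of all genes were called, Notch1 (1.70 ± 0.31, edgeR adjusted p = 0.000545) and Notch2 (2.34 ± 0.41, 0.00031) were called and Dll1 was not (-0.89 ± 0.68, 0.445). E13.5 libraries share embryos here too, so these p-values have the limits given above for ONL and nerve. By the published means, 5 of 5 neuron markers (median log2 change -2.74) and 3 of 4 markers of olfactory bulb projection neurons (-4.7) were called lower in the interaction. Of 5 markers of neuronal progenitors and neuroblasts 1 was higher and 2 lower, and of 5 neural crest glia markers 1 was higher. The part of these cell types in the changes of Notch1, Notch2 and Dll1 was not tested.

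The genes that respond to the pathway and those that modify it were taken from a list of 43 other genes in 7 roles, of which 42 could be tested (Hes7 was too low). The 7 target genes of Rbpj on the list encode the transcriptional repressors Hes1, Hes5, Hes7, Hey1, Hey2 and Heyl and the feedback inhibitor Nrarp. In outer ONL compared with olfactory nerve, 3 of the 6 tested were higher and 1 was lower, against 10.2% and 11.8% of all genes. Hes5 was 35, 22.7, 30.3 and 35.2 CPM in outer ONL and 3.16, 3.16, 1.76 and 1.77 CPM in olfactory nerve (log2 difference 3.64 ± 0.68, edgeR adjusted p = 0.000166). Hey2 was 463, 322, 384 and 324 CPM against 85.6, 117, 80.6 and 56.4 CPM (2.14 ± 0.29, edgeR adjusted p = 1.98e-06), and Heyl was 585, 382, 463 and 549 CPM against 113, 157, 145 and 92.5 CPM (1.96 ± 0.28, edgeR adjusted p = 3.444e-06). Hey1 went the other way, at 37.8, 29.7, 37.5 and 33.8 CPM in outer ONL and 131, 79.1, 114 and 87.8 CPM in olfactory nerve (-1.57 ± 0.20, edgeR adjusted p = 4.042e-07). The ranges of these 4 genes lay apart between the groups, and the share of all genes that do so was not counted. The part of the cell types given above in the differences of the targets, and of the other pathway genes below, was not tested in any comparison.

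The same 4 targets separated outer ONL from trigeminal nerve, a comparison in which 25.8% of all genes were called in either direction. Hes5 was 0.397, 0.469 and 1.4 CPM in trigeminal nerve (log2 difference 5.34 ± 0.84, edgeR adjusted p = 1.208e-05) and Hey2 was 25.5, 47.2 and 41.2 CPM (3.30 ± 0.35, edgeR adjusted p = 1.162e-08). Heyl was also higher in outer ONL (1.65 ± 0.31, edgeR adjusted p = 0.000107) and Hey1 lower (-1.90 ± 0.21, edgeR adjusted p = 2.238e-08). Between the nerves only Hey2 among the 6 targets tested was called, higher in olfactory nerve (1.16 ± 0.31, edgeR adjusted p = 0.00663), and between inner and outer ONL 0 of 6 targets were called. Of all genes, 13% were higher and 10.6% lower in olfactory than in trigeminal nerve, and 8.2% and 5.94% in inner than in outer ONL.

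At E13.5, by the published means and with p-values limited as above, Hes5 (3.01 ± 0.52, edgeR adjusted p = 2.833e-05), Hey2 (2.49 ± 0.24, 1.223e-09) and Heyl (1.14 ± 0.22, 0.000149) were higher in ONL than in nerve, and Hes1 (-1.52 ± 0.35, 0.000928) and Hey1 (-2.56 ± 0.17, 1.723e-12) lower. By label, Heyl was higher (0.86 ± 0.30, edgeR adjusted p = 0.0449), Hey2 was lower (-2.07 ± 0.55, 0.012), and the others were not called. From E13.5 to E16.5 in olfactory nerve, 2 of the 6 targets tested rose and 2 fell by the published means, against 15.2% and 13.6% of all genes. Hes1 fell from 44.8 ± 19.3 CPM (n = 7) to 22.8 ± 5.54 CPM (n = 4) (-0.98 ± 0.36, edgeR adjusted p = 0.0438), and Hey1 from 161 ± 34.3 CPM to 103 ± 23.7 CPM (-0.65 ± 0.17, edgeR adjusted p = 0.00489). Heyl and Hey2 rose. Hey2 rose with stage in both regions, from 28.9 ± 6.04 CPM (n = 7) to 84.9 ± 24.9 CPM (n = 4) in olfactory nerve (1.56 ± 0.25, edgeR adjusted p = 2.19e-05) and from 163 ± 45.4 CPM (n = 5) to 373 ± 66.5 CPM (n = 4) between E13.5 ONL and outer ONL (1.2 ± 0.27, edgeR adjusted p = 0.000523). By label 1 target was called between the nerve groups, Hes5, which was lower at E16.5 (-2.39 ± 0.86, edgeR adjusted p = 0.041), where 25.1% of all genes were called. Between E13.5 ONL and outer ONL by label, Hey2 (4.97 ± 0.66, edgeR adjusted p = 1.249e-06) and Hes5 (2.72 ± 0.83, 0.0119) were higher, and Hes1 (-1.61 ± 0.37, 0.00116) and Hey1 (-2.05 ± 0.32, 1.188e-05) lower.

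Heyl moved in opposite directions over time in the nerve. It was lower at E13.5 than at E11.5 (-1.34 ± 0.23, edgeR adjusted p = 4.267e-05) and higher at E16.5 than at E13.5 (1.03 ± 0.24, 0.00138), and it was not called in either step by label. Hey2 was higher at E13.5 than at E11.5 (2.31 ± 0.29, edgeR adjusted p = 2.425e-07) but lower by label (-1.65 ± 0.53, 0.0307), where Hes1 (1.61 ± 0.36, 0.00259) and Hey1 (2.42 ± 0.32, 5.653e-05) were higher. From E13.5 ONL to outer ONL, Heyl was higher by either grouping (1.85 ± 0.26, edgeR adjusted p = 1.113e-06, and 1.81 ± 0.35, 0.000193, by label). Of the 6 targets tested in the interaction, Hey1 was called (0.99 ± 0.25, edgeR adjusted p = 0.00685), whereas by label Hes5 (5.11 ± 1.20, 0.00496) and Hey2 (4.21 ± 0.84, 0.00117) were called higher and Hey1 lower (-1.56 ± 0.41, 0.011). All of these comparisons use libraries that share embryos, with p-values that are too small between stages and limited as above in the interaction.

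**Figure D5:**
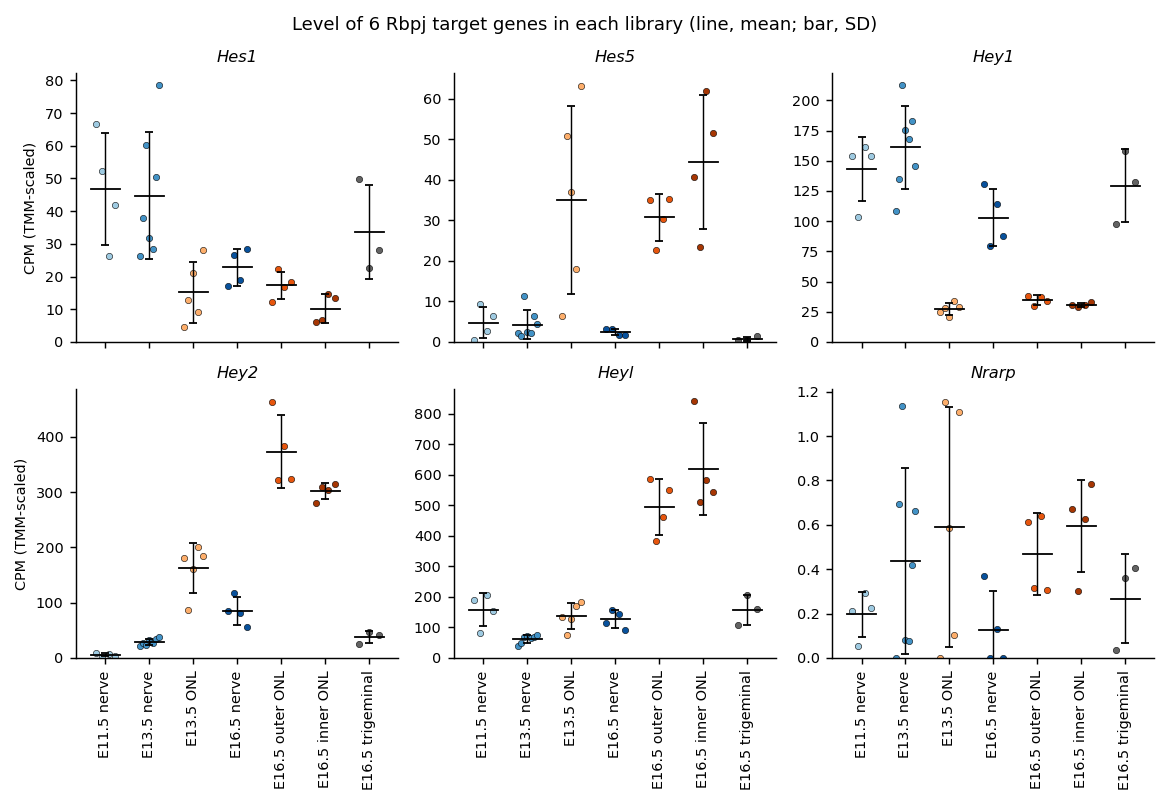
Level of 6 Rbpj target genes in each of the 31 libraries, in CPM on a linear axis, by the published grouping (points are libraries, lines are group means and bars are SDs). Hes5, Hey2 and Heyl were higher and Hey1 lower in outer ONL than in either E16.5 nerve, with Hes5 at 22.7 to 35.2 CPM in outer ONL and 1.76 to 3.16 CPM in olfactory nerve.

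Of the genes for receptor sugar enzymes, ligand ubiquitin ligases and non-canonical ligands, those called in outer ONL against olfactory nerve were all lower. Over all genes 10.2% were higher and 11.8% lower there. Of the 5 genes for enzymes that put sugars on the receptors, the fringes Lfng (-1.91 ± 0.60, edgeR adjusted p = 0.0203) and Mfng (-2.16 ± 0.42, 0.000315) were lower in outer ONL and 0 were higher. Of the 4 ubiquitin ligases that act on ligands, Neurl1a (-0.87 ± 0.25, edgeR adjusted p = 0.0107) and Neurl1b (-1.08 ± 0.31, 0.012) were lower in outer ONL, and both were higher in inner than in outer ONL (1.53 ± 0.25 and 1.55 ± 0.32, edgeR adjusted p = 5.446e-05 and 0.00072). Of the 3 non-canonical ligands, Dlk2 was lower in outer ONL than in olfactory nerve (-3.10 ± 0.64, edgeR adjusted p = 0.000572), and Dlk1 was lower than in trigeminal nerve in both outer ONL (-3.92 ± 0.38, edgeR adjusted p = 3.557e-09) and olfactory nerve (-4.19 ± 0.39, 2.392e-09). Dner, a ligand-like gene of neurons, was higher in inner than in outer ONL (2.96 ± 0.43, edgeR adjusted p = 1.165e-05), together with Dlk2 (2.63 ± 0.64, 0.00402).

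Trigeminal nerve differed from outer ONL and from olfactory nerve in several of these genes. Compared with it, outer ONL had less Lfng (log2 difference -1.98 ± 0.63, edgeR adjusted p = 0.0186), Neurl1a (-0.78 ± 0.26, 0.0275), Neurl1b (-1.05 ± 0.33, 0.0172) and Pofut1 (-0.50 ± 0.19, 0.0464), the last an enzyme that puts fucose on the receptors, and more Dner (1.30 ± 0.46, 0.0371). Olfactory nerve had less Pofut1 than trigeminal nerve (-0.76 ± 0.19, edgeR adjusted p = 0.00267) and more Mfng (2.04 ± 0.47, 0.0015), Dlk2 (4.66 ± 0.78, 3.662e-05) and Dner (1.67 ± 0.47, 0.00834).

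In the early libraries, whose p-values are limited as above, Mfng was lower in E13.5 ONL than in nerve both by the published means (-2.34 ± 0.37, edgeR adjusted p = 8.378e-06) and by label (-1.81 ± 0.46, 0.0092). It was higher in E13.5 than in E11.5 nerve in the same way (2.41 ± 0.40, edgeR adjusted p = 2.311e-05, and 2.25 ± 0.52, 0.00344, by label). Between E13.5 ONL and nerve, Lfng (-1.72, edgeR adjusted p = 0.00853) and Neurl1a (-0.61, 0.0211) were lower and Dner (1.72, 0.000127) higher in ONL by the published means, whereas by label Mib1 (-0.55, 0.00885), a ubiquitin ligase for ligands, and Neurl1b (-0.92, 0.0419) were lower. From E11.5 to E13.5 nerve, Lfng (1.85, edgeR adjusted p = 0.0083), Poglut1 (0.63, 0.00492), Mib1 (0.64, 0.000859), Neurl1b (1.39, 0.000362) and Dlk2 (2.17, 0.00325) rose and Mib2 (-0.57, 0.0179) fell by the published means, and by label Dner fell (-1.23, 0.0466).

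Mib1 and Mib2 moved in opposite directions after E13.5 by the published means. In olfactory nerve Mib2 was higher at E16.5 (1.01, edgeR adjusted p = 0.000177) and Mib1 (-0.70, 0.000569) and Neurl1a (-0.82, 0.00548) lower, with the same calls by label (1.01, -0.70 and -0.77, edgeR adjusted p = 0.000967, 0.00105 and 0.0171). Between E13.5 ONL and outer ONL, Mib2 (1.22, edgeR adjusted p = 2.071e-05) and Pofut1 (0.78, 0.000337) were higher and Mib1 (-0.79, 0.000116), Neurl1a (-1.08, 0.000543), Neurl1b (-0.88, 0.0197), Dlk2 (-2.15, 0.00578) and Dner (-2.78, 3.468e-06) lower by the published means. By label Mib2 (0.60, edgeR adjusted p = 0.0421), Pofut1 (0.49, 0.0266) and Dlk1 (0.94, 0.0294) were higher and Neurl1a (-1.33, 0.000168) and Dner (-1.67, 0.0096) lower. In the interaction Dlk2 (-2.87, edgeR adjusted p = 0.0128) and Dner (-2.10, 0.00705) were called by the published means, and no modifier or non-canonical ligand was called by label.

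Counted in either direction, the machinery that cleaves the receptors and carries the signal was called about as often as other genes. Of 9 genes for receptor proteases, 1 was called between outer ONL and olfactory nerve (Aph1b, higher), and of 7 nuclear cofactors also 1 (Maml2, higher). Of 8 genes of receptor turnover and inhibition, Numb, Fbxw7 and Dtx4 were higher and 0 lower. Together 5 of these 24 genes were called (20.8%), against 22% of all genes in either direction. All 5 were higher, whereas 10.2% of all genes were called higher and 11.8% lower.

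Counts over all roles are read against the shares of all genes. Of the 42 genes tested, 8 were higher and 6 lower in outer ONL than in olfactory nerve (19% and 14.3%, against 10.2% and 11.8% of all genes). In outer ONL compared with trigeminal nerve, 8 were higher and 7 lower (19% and 16.7%), against 25.8% of all genes in either direction. Between olfactory and trigeminal nerve, 5 were higher and 4 lower (11.9% and 9.52%, against 13% and 10.6%), and 6 were higher and 0 lower in inner than in outer ONL (14.3% and 0%, against 8.2% and 5.94%). These shares were not tested against each other.

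By the published means, 9 were higher and 6 lower in E13.5 ONL than in E13.5 nerve (21.4% and 14.3%, against 15.4% and 16.1% of all genes), and by label 3 and 5 (7.14% and 11.9%, against 8.88% and 8.81%). In E13.5 compared with E11.5 nerve, 8 were higher and 4 lower (19% and 9.52%, against 20.2% and 16.4%), and by label 4 and 7 (9.52% and 16.7%, against 9.31% and 8.18%). In E16.5 compared with E13.5 nerve, 8 were higher and 7 lower (19% and 16.7%, against 15.2% and 13.6%), and by label 6 and 6 (14.3% each, against 12.4% and 12.6%). The counts were 13 and 8 in outer ONL compared with E13.5 ONL (31% and 19%, against 21.9% and 20%), and 15 and 7 by label (35.7% and 16.7%, against 18.2% and 17.1%). In the interaction they were 4 and 3 (9.52% and 7.14%, against 5.59% and 6.75%), and 5 and 2 by label (11.9% and 4.76%, against 6.83% and 5.71%).

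The promoters of the genes the results turn on were searched for the core of the Rbpj binding motif, TGGGAA or its complement TTCCCA, in the 250 bases before each RefSeq start site (assembly GRCm38.p6). Of 32851 promoters in the table, 21.6% held it and 2.77% held it at least 2 times. Among the members 1 of 10 held it, Rbpj itself, and among the 7 targets 3 of the 4 with a promoter in the table, Hes5, Hes7 and Hey2. Hes5 held it 2 times, at 226 and 82 bases before the start site, on opposite strands. Rbpj also held it 2 times before its first start site, at 149 and 65 bases, on opposite strands, but the match at 65 bases lies among the 132 bases of the window that fall in exons of the gene itself and is not in the stretch shown. The windows of Dll3 and Jag2 lie wholly in exons of their own genes. The 3 sequences shown are those of Rbpj (chr5:53590096-53590213, + strand), Hes5 (chr4:154960673-154960922, + strand) and Hey2 (chr10:30842802-30843033, - strand), each 5′ to 3′ up to the start site or the first base of the gene's own exons, with the motif in capitals. They are shown because Hes5 and Hey2 were the targets with the largest log2 differences between outer ONL and olfactory nerve and Rbpj is the member whose factor reads the motif.
Rbpj: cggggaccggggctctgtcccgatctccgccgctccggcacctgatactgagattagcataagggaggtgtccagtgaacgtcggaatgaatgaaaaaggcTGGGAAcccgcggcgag
Hes5: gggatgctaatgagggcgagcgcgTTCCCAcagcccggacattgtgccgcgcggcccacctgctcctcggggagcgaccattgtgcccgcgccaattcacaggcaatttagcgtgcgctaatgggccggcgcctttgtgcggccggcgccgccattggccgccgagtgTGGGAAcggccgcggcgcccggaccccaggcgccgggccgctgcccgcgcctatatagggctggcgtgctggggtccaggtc
Hey2: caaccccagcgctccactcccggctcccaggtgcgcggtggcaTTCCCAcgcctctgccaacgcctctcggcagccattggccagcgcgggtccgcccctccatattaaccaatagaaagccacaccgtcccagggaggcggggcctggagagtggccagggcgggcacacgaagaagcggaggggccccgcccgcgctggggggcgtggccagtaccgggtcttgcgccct
A match in these windows is a description of the letters and does not say that the factor was bound there.

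The ranks of the groups summed up how widely each member varied. From the lowest to the highest group mean, by the published means, the level in CPM differed 13.4-fold for Dll3, 11-fold for Dll1, 7.45-fold for Jag1, 6.47-fold for Dll4, 5.75-fold for Notch2, 5.16-fold for Notch3, 3.85-fold for Notch1, 3.04-fold for Notch4, 2.75-fold for Jag2 and 1.98-fold for Rbpj. Most neighbours in each order overlapped. The ranges of neighbouring groups were apart for Notch1 between E16.5 olfactory nerve and E13.5 ONL, for Notch2 between trigeminal nerve and E11.5 olfactory nerve, for Notch3 and Jag1 between trigeminal nerve and the next group, for Dll1 between E13.5 ONL and the next group, and for Dll4 between inner ONL and E13.5 ONL. Rbpj, Notch4, Dll3 and Jag2 had no such break. How many of all genes have such breaks was not counted.

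All 10 genes lie on autosomes in GRCm38 (GENCODE M21). Notch1 (ENSMUSG00000026923) lies at chr2:26457903-26516663 on the - strand, Notch2 (ENSMUSG00000027878) at chr3:98013527-98150361 on the + strand, Notch3 (ENSMUSG00000038146) at chr17:32120820-32166852 on the - strand and Notch4 (ENSMUSG00000015468) at chr17:34564268-34588503 on the + strand. Dll1 (ENSMUSG00000014773) lies at chr17:15367354-15376872 on the - strand, Dll3 (ENSMUSG00000003436) at chr7:28293553-28302238 on the - strand, Dll4 (ENSMUSG00000027314) at chr2:119325784-119335962 on the + strand, Jag1 (ENSMUSG00000027276) at chr2:137081456-137116644 on the - strand, Jag2 (ENSMUSG00000002799) at chr12:112907819-112929776 on the - strand and Rbpj (ENSMUSG00000039191) at chr5:53466152-53657362 on the + strand. Genes overlapping Dll1, Notch1, Dll4 and Notch2 held few counts of their own, such as A930024N18Rik on the other strand of Dll1 with 301 counts over all libraries against 2915 for Dll1. The strand setting of the counting was not given in the sources used here, so reads of such overlapping genes cannot be told apart from those of the member.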

How the data were processed

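Tissue cut from Sox10:H2BVenus mouse embryos gave 31 RNA-sequencing libraries (SMART-seq V4 and Nextera XT, paired-end). The authors deposited raw counts of reads per gene, made with TopHat2 2.1.0 on mm10 and HTSeq, for 47729 Ensembl genes. Strand setting was not given in the sources used here, and 1 row naming no gene was left out. GENCODE M21 gave symbols to 47224 genes. Totals of 3512627 to 36705535 counts per library limit the precision of low genes such as Dll3 and Nrarp.

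Counts were scaled by TMM in edgeR 4.0.16 (R 4.3.3). The filter filterByExpr, given the groups, kept 19332 of the 33331 genes with a count, and edgeR's quasi-likelihood test was run in 1 fit of all libraries, with 1 coefficient per group, Benjamini-Hochberg adjustment over all genes kept and calls at an adjusted p under 0.05. The fit was tested on simulated data. Early libraries were grouped as in the published group means, checked by a least squares match over 1574 to 1645 genes per group, which placed 31 of 31 libraries so. Within a group, no libraries were near-identical (smallest chi-square per gene 8.11). CPM per kb used the exon length of each gene. Python 3.11.15 with pandas 2.3.3, numpy 2.4.6 and matplotlib 3.10.9 did the rest.

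The members and the lists of pathway and marker genes were chosen with earlier results of these data known, and 1 marker gene is not reported here and was left out of its list. Values of all 10 members are given in every group, with fold changes for those called or set against a called one. Other pathway genes are given by count, per role between outer ONL and olfactory nerve and over all roles in every comparison. Called targets, ligand modifiers, receptor sugar enzymes and non-canonical ligands are given with their values. For each member, the 3 genes with the highest Pearson correlation of log2 CPM (prior count 2) over 31 libraries were taken among genes with a mean of at least 5 CPM.

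Whether libraries of the same number deviate together was checked over 12234 genes. Between olfactory nerve and outer ONL of E16.5, the 4 correlations of same-number libraries were 0.231 to 0.472 and those of other pairs -0.359 to 0.361, so the number was taken to pair them, from these values and not from the labels. In the other E16.5 comparisons same-number correlations reached below 0.1. Alternatives were total-count and upper-quartile scaling, no filter, DESeq2 1.42.0, grouping by label, the groups compared alone, the number as a replicate block and each library left out. Fitting the E16.5 libraries alone was added after seeing the data.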

Additional observations from a re-analysis of the deposited data

Results flagged for a closer look

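In 60 sets of 1 member in 1 group of 4 to 7 libraries, levels as log2(CPM + 1) were searched for a library far from the rest, which chance gives in about 1 in 20 sets, and 2 were found. Jag1 was 39.36 CPM in the library labelled E13.5_ONL3 and 13.86 to 15.71 CPM in the other 3 libraries of the E11.5 olfactory nerve group. Notch4 was 1.383 CPM in the library labelled E11.5_ON1 and 4.536 to 6.449 CPM in the other 4 of the E13.5 ONL group.

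The difference between ONL and olfactory nerve changed with stage for 3 members by the test of that change (edgeR's quasi-likelihood test, adjusted). It changed by 1.5 on the log2 scale for Notch1, by 1.05 for Notch2 and by -3.49 for Dll1, and by label by 1.70, 2.34 and -0.89, the last not called.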

How the results depend on the processing

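Of the 40 calls of a member, 19 held under every alternative run and 28 under every alternative other than grouping by label. Leaving out 1 library kept 359 of 409 calls and lost 50, other settings kept 198 of 215, grouping by label kept 12 of 25, lost 11 and turned 2, and the replicate block kept 13 of 23, lost 8 and turned 2. The block on its own number changed no other call between outer ONL and olfactory nerve than those of Notch3 and Rbpj. Between outer ONL and trigeminal nerve, where same-number correlations were -0.236 to 0.217, it left Dll1 uncalled (-1.80, edgeR adjusted p = 0.0981).

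The number of members called moved to 5 between the E16.5 nerves with total-count scaling, and to 1 between inner and outer ONL without a filter. Between E13.5 ONL and nerve it moved to 4 by label and to 0 by label with the replicate block. Between E16.5 and E13.5 nerve it was 0 with total-count scaling, without a filter and by label, and 2 by DESeq2 and with the 2 groups alone. With 1 library left out it ranged from 1 to 2 between inner and outer ONL and from 0 to 1 between E16.5 and E13.5 nerve.

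Directions turned at E13.5 between ONL and nerve for Notch2 by label (-1.23), by label with the block (-1.43) and without E13.5_ON1 (-0.05), for Dll1 by label (-0.58) and with the block (-0.43), and for Jag2 by label with the block (0.01). From E11.5 to E13.5, Jag2 turned without E13.5_ON2 (-0.05) or E13.5_ONL2 (-0.03). From E13.5 ONL to outer ONL, Notch3 (-0.10) and Jag2 (-1.01) turned by label. Grouping by label is another set of libraries per group, and for the other settings the cause was not tested.

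Over all genes, calls went from 6087 to 3421 by label and 4 by label with the block between E13.5 ONL and nerve, from 7071 to 3380 by label between the early nerve groups, and from 4989 to 3317 with the block between outer ONL and trigeminal nerve. Total-count scaling moved the median of all genes from 0.01 to -0.13 between outer ONL and olfactory nerve, from 0.01 to 0.13 between outer ONL and trigeminal nerve and from -0.01 to 0.24 between the nerves. Dll3 was low in trigeminal nerve, at 4 to 15 counts in libraries of 30221586 to 32508725 counts.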

Other observations

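Across the 31 libraries, which share depth and tissue make-up within a group, the genes most like each member in log2 CPM are given as a description. Notch2 was most like Daam2 (Pearson r = 0.905), Kctd12 (0.895) and Cxcr4 (0.889), and Notch1 like Tmem86a (0.889), Dlgap1 (0.884) and Itga2 (0.876). Notch3 was most like B4galt1 (0.898), Cd248 (0.891) and Tns1 (0.888), and Notch4 like Plvap (0.844), Btg1 (0.802) and Fbxl7 (0.791). Among the ligands, Dll4 was most like Ccdc80 (0.917), Aqp1 (0.906) and Dkk3 (0.902), Jag1 like Atp2b4 (0.908), Loxl2 (0.908) and Tead1 (0.903), and Jag2 like Trib3 (0.853), Cpeb1 (0.852) and Gadd45g (0.849). Dll1 was most like Dusp4 (0.86), Nav1 (0.836) and Dclk1 (0.815), and Dll3 like Sbk1 (0.899), Fem1a (0.883) and Lrp11 (0.88). Rbpj was most like Slc5a3 (0.923), Poglut1 (0.829) and Sh3bgrl (0.828), of which Poglut1 encodes an enzyme that puts glucose on Notch receptors.

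Among the members themselves, Notch1 and Dll4 had an r of 0.753, Notch1 and Notch2 of 0.663, and Dll3 and Dll4 of -0.688 over the same 31 libraries. Set against the summed levels of the 9 marker lists, the list with the highest r was mural cells for Dll4 (0.845, with endothelium at 0.832), mesenchyme for Notch3 (0.764, with mural cells at 0.747) and for Jag1 (0.564), endothelium for Notch1 (0.756), epithelium for Jag2 (0.778) and for Notch4 (0.661), neurons for Dll3 (0.795), neural crest glia for Notch2 (0.679), olfactory bulb projection neurons for Dll1 (0.632), and neuronal progenitors and neuroblasts for Rbpj (0.583). Notch4 had an r of 0.138 with endothelium, and Jag1 had one of -0.77 with neural crest glia. Macrophage markers summed to 148 to 207 CPM in outer ONL and 212 to 434 CPM in E16.5 olfactory nerve, with 0 of 5 called. Those of neuronal progenitors and neuroblasts summed to 4.99 to 17 CPM and 43.9 to 166 CPM. Of these 5 markers, 1 was called higher and 3 lower in outer ONL. None of these values tells which cells in a piece made the RNA.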
